A study of Mus musculus with 28 samples.

Results

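Mitochondrial fatty acid oxidation was followed through 10 genes whose products carry fatty acids through beta-oxidation, namely Cpt1b, Cpt2, Acadvl, Acadl, Acadm, Hadha, Hadhb, Decr1, Etfa and Etfdh. They were named for their role, with earlier results of these data known, and each was read from the probe set annotated to that gene alone that had the highest mean. In heart and gastrocnemius all 10 were measured, of 30063 genes. In liver and quadriceps 9 were measured, of 19928 genes, because the Cpt1b probe set of that array type is also annotated to a second gene, Gm44502, and was not used. The study profiled transcripts of metabolic tissues in old and young mice, all female C57BL/6J, an inbred laboratory strain. The animals lived in groups on standard chow and were killed after a night without food at 24 months (103 weeks) or 6 months (24 weeks) of age. The groups were 24-month and 6-month liver and 24-month and 6-month quadriceps, a thigh muscle, with 3 arrays each, and 24-month and 6-month heart and 24-month and 6-month gastrocnemius, a calf muscle, with 4 arrays each, 28 arrays in all. Every group was fasted, so fed levels were not measured. The labels do not state that the arrays of a group came from separate animals, so p-values measure only the spread between these samples.

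Long-chain fatty acids enter mitochondria as carnitine esters. Carnitine palmitoyltransferase 1, whose muscle form is encoded by Cpt1b, makes the ester at the outer membrane and is the main point of control, and Cpt2 turns it back into acyl-CoA inside. Acyl-CoA dehydrogenases for very long, long and medium chains (Acadvl, Acadl, Acadm) take the first oxidative step. The trifunctional protein, built from the subunits encoded by Hadha and Hadhb, carries out the steps that follow for long chains, and Decr1 prepares unsaturated fatty acids. Electrons from the dehydrogenases pass through the electron transfer flavoprotein, whose alpha subunit is Etfa, to its dehydrogenase Etfdh and so to ubiquinone. Heart and fasted liver rely strongly on the pathway, and among skeletal muscle fibres the slow oxidative ones use it most. Many of these genes are known targets of the nuclear receptors PPARα and ERRα.

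Both subunit genes of the trifunctional protein are read outwards from 1 short stretch. In RefSeq on build GRCm38.p6, Hadha lies on the minus strand with its start at base 30154980 of chromosome 5, and Hadhb on the plus strand with its start at base 30155253. The 272 bases between the starts, chr5:30154981-30155252, are printed on the plus strand because any element in them lies before both genes. Capitals mark the GC box GGGCGG:
Hadha-Hadhb: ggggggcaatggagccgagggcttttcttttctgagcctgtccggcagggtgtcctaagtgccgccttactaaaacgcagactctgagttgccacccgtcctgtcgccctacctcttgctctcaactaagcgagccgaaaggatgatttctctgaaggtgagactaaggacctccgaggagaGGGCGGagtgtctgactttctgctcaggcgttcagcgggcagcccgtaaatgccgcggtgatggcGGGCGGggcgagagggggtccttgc
Of 16560 plus-strand starts in the table, 7.98% have a minus-strand start as near upstream.

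The 250 bases before the start were available for 8 of the 10 genes. Cpt2 and Acadm are printed because their levels relative to the other members did not overlap between ages in either skeletal muscle. On that measure, chosen after the data had been seen, Cpt2 was lower and Acadm higher at 24 months. The levels of both genes themselves overlapped between ages in both muscles. In gastrocnemius the relative level of Acadm depended on scaling, as given below. The Cpt2 window is chr4:107923590-107923839 and the Acadm window chr3:153944644-153944893, both on the minus strand. Capitals mark GC boxes in Cpt2 and, in Acadm, the nuclear receptor half-site AGGTCA read on the opposite strand:
Cpt2: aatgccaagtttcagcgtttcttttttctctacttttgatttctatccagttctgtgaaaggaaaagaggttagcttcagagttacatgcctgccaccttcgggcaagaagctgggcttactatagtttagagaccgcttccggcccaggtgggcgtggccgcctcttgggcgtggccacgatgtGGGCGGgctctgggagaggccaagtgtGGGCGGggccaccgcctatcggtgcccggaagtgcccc
Acadm: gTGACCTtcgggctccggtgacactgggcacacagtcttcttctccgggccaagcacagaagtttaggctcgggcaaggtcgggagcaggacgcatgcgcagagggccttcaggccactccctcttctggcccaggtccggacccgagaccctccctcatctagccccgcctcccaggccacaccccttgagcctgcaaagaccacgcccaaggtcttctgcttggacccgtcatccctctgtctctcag
Motifs were searched on both strands. GGGCGG was found in 4 of the 8 windows (Acadl, Cpt2, Hadha and Hadhb), against 32.7% of 32851 windows of all genes. The Hadha and Hadhb windows share 228 bases and hold 1 GC box in common, so they are not separate cases. AGGTCA was found in 2, Acadm and Acadvl, against 14% of all windows, and CCAAT in 2, Etfdh and Etfa, against 33.8%. The NRF1 core motif lay in 1 window, that of Etfdh, against 4.98%. Neither TNAAGGTCA, the element bound by ERR receptors, which contains AGGTCA, nor the direct repeat of AGGTCA with 1 base between and both half-sites exact was in these 8 windows, against 1.14% and 0.0335% of all windows.

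The values are log2 expression from arrays, and the precision of a difference depends on the number of arrays and on the spread between them. Over all genes, standard errors of the difference between ages had a median of 0.10 in liver, 0.08 in quadriceps, 0.06 in heart and 0.07 in gastrocnemius. The labelled tissues carried their markers. Hepatocyte markers averaged 13.48 to 13.53 on the liver arrays, cardiomyocyte markers 11.12 to 11.15 on the heart arrays, and skeletal muscle markers 11.66 to 11.79 on the quadriceps arrays and 11.15 to 11.36 on the gastrocnemius arrays. The third 24-month liver array stood apart, with a mean Pearson r across genes of 0.9936 with the 6-month livers and 0.9923 with its own group. The first 24-month quadriceps array had the highest hepatocyte marker mean of the quadriceps arrays, 8.36, against 6.22 and 6.47 on the other 24-month arrays and 6.80 to 7.09 on the 6-month arrays.

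At 6 months every member was higher in liver than in quadriceps and higher in heart than in gastrocnemius. The tissues of 1 array type were tested in limma with all arrays of that type, two-sided, with Benjamini-Hochberg adjustment over all genes and a threshold of 0.05. The labels do not state whether the tissues came from the same animals, and arrays of different tissues were treated as independent. The median difference of the 9 members was 0.86 for liver minus quadriceps, where the median of all genes was 0.10, and that of the 10 members was 1.37 for heart minus gastrocnemius, where all genes had a median of 0.27. In whole tissue, fewer cells of a type and less RNA per cell cannot be told apart.

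In liver against quadriceps the differences were largest for Decr1, Cpt2 and Etfdh. Decr1, the reductase for unsaturated chains, stood at 11.55 ± 0.02 in liver and 9.87 ± 0.16 in quadriceps (SD, n = 3 each), a difference of 1.68 with a standard error of 0.10. Cpt2 differed by 1.65, or 3.13-fold, and Etfdh by 1.52, while Acadvl differed by 1.02. The differences were smaller for Acadm (0.86), Etfa (0.83), Hadha (0.81) and Acadl (0.64). Hadhb had the smallest, 0.56 with a standard error of 0.10, at 11.45 ± 0.03 in liver and 10.90 ± 0.17 in quadriceps (SD, n = 3 each). All 9 passed, with limma adjusted p between 1.42e-09 and 0.000274, where 40.7% of all genes were higher in liver. The second Hadhb probe set of this array type differed by 0.46. Hadhb alone lost its call with quantile normalization, at 0.25 and a limma adjusted p of 0.0536.

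In heart against gastrocnemius the differences were more alike. Hadha stood at 12.13 ± 0.03 in heart and 10.59 ± 0.22 in gastrocnemius (SD, n = 4 each), a difference of 1.54 with a standard error of 0.11, or 2.91-fold. Cpt2 differed by 1.5, Acadvl by 1.43, Decr1 by 1.41 and Etfdh by 1.40. Hadhb differed by 1.34 and Etfa by 1.29, and Acadl and Acadm both by 1.25. Cpt1b, the muscle form of the gatekeeper enzyme, had the smallest difference, 0.89 with a standard error of 0.09, at 11.62 ± 0.04 in heart and 10.73 ± 0.17 in gastrocnemius (SD, n = 4 each). All 10 passed, with limma adjusted p of 1.97e-07 or less, where 60.8% of all genes were higher in heart. Scaling moved that background: 18264 genes were higher and 4427 lower as deposited, 7637 and 11234 with quantile normalization, and 5800 and 14300 with arrays centred on their median, which put the median of all genes at -0.06 and -0.14 in place of 0.27. The 10 members remained higher in heart under both, with medians of 1.37 and 0.96. For liver minus quadriceps the split was 8111 higher and 5479 lower as deposited, 6367 and 7467 with quantile normalization, and 6943 and 6699 with centring.

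**Figure D1:**
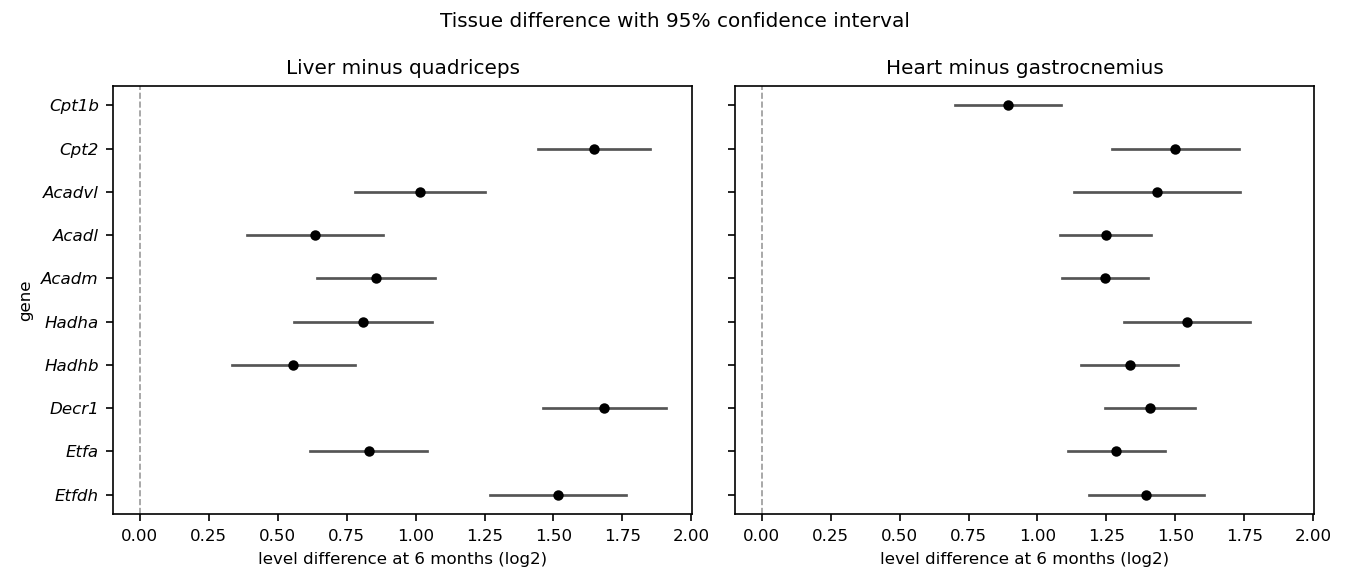
Difference in level at 6 months of each gene between tissues of 1 array type, in log2 units (points) with 95% confidence intervals (bars), liver minus quadriceps on the left and heart minus gastrocnemius on the right. Every interval lies above 0. The points run from 0.56 for Hadhb to 1.68 for Decr1 on the left and from 0.89 for Cpt1b to 1.54 for Hadha on the right.

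The age comparison asked whether these transcripts differed between 24 and 6 months in each tissue. Within each tissue limma was fitted to all genes, with the same adjustment and threshold. None of the members passed in any tissue. The share of all genes that passed was 0.326% in liver, 0.00502% in quadriceps, 0.00665% in heart and 0.00998% in gastrocnemius. At an unadjusted p under 0.05 there were 3 members in liver (Hadhb, Acadvl and Hadha), where 32.8% of all genes met it, and 0 in quadriceps (7.06% of all genes), heart (5.99%) and gastrocnemius (16.5%).

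**Figure D2:**
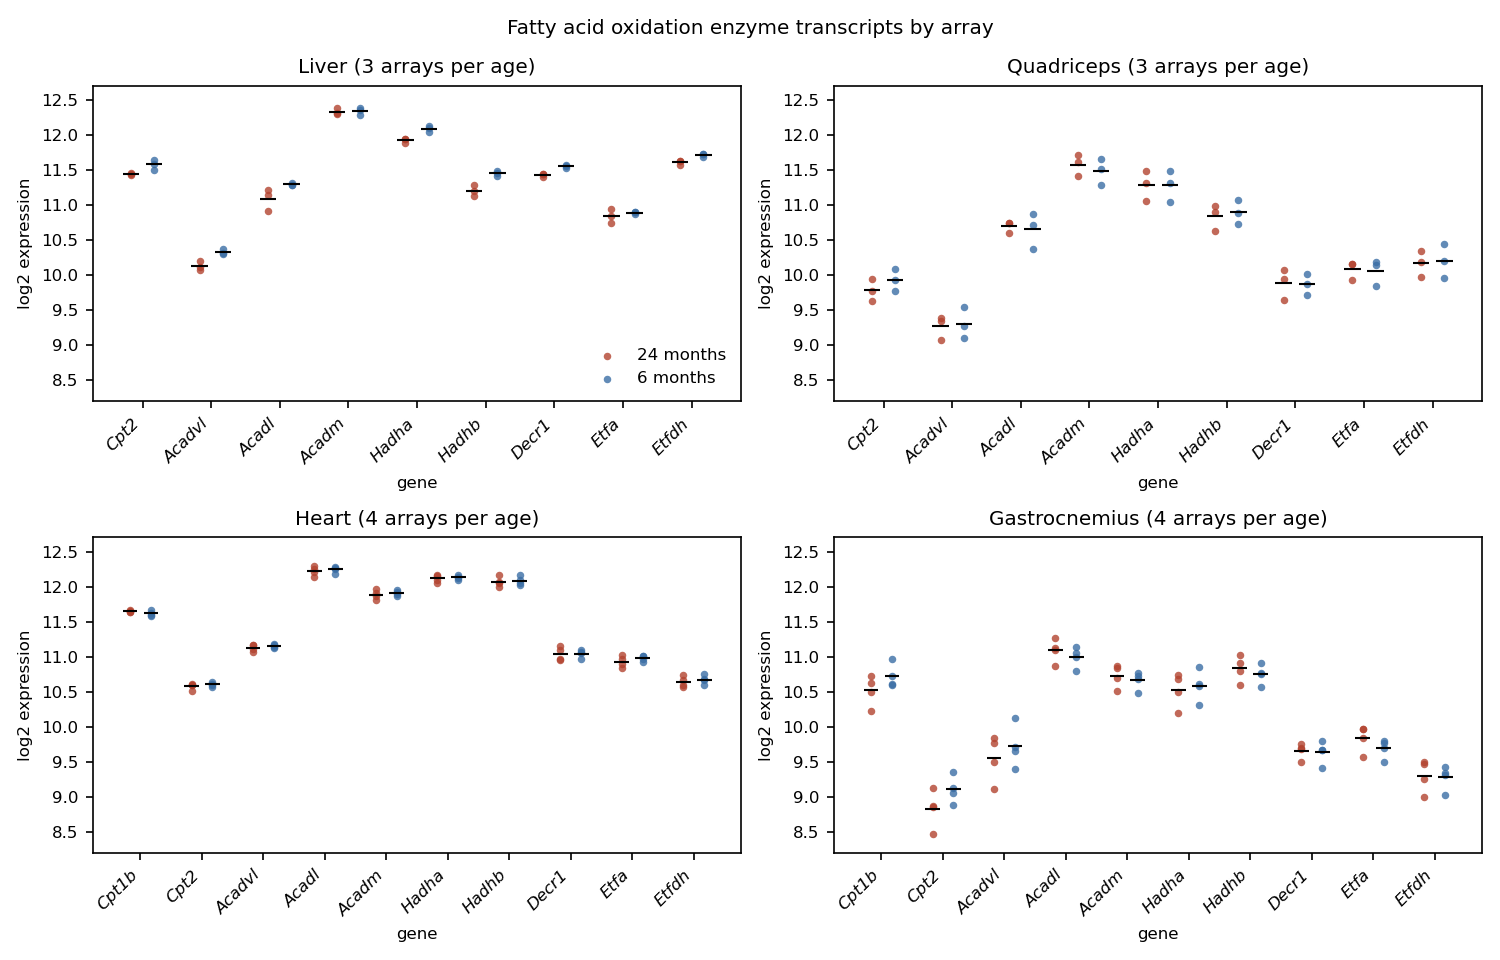
Log2 expression of each gene on every array (points) with group means (lines), 24 months left of 6 months, in liver and quadriceps (3 arrays per age) and in heart and gastrocnemius (4 arrays per age). In liver 7 of the 9 genes have all 24-month arrays below all 6-month arrays, while in the other 3 tissues the ages overlap for every gene.

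In liver all 9 estimates were lower at 24 months, with a median difference of -0.14, against a median of 0.03 over all genes, of which 45.2% had estimates below 0. For Hadhb, Hadha, Acadvl, Acadl, Cpt2, Decr1 and Etfdh every 24-month array lay below every 6-month array, which held for 17.4% of all genes. Hadhb, the thiolase subunit of the trifunctional protein, stood at 11.13, 11.20 and 11.29 in 24-month livers, against 11.42, 11.48 and 11.46 in 6-month livers. Its difference was -0.25 with a standard error of 0.08 (95% interval -0.42 to -0.07, adjusted p = 0.0801 in limma). A second Hadhb probe set gave -0.26. Whether one of these 2 probe sets lies at a copy of the gene elsewhere could not be checked. Hadha, which encodes the partner subunit, stood at 11.88, 11.95 and 11.94 in 24-month livers and at 12.05, 12.13 and 12.10 in 6-month livers, a difference of -0.17 (-0.34 to -0.0028, limma adjusted p = 0.148). Both subunit genes thus lay lower on all 3 old arrays. In quadriceps their estimates had opposite signs, at 0.0033 for Hadha and -0.057 for Hadhb, as in gastrocnemius, at -0.058 and 0.088. In heart both were -0.0125, and the intervals in these other tissues included 0. A part of the shared stretch printed above in the liver differences was not tested.

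Of the dehydrogenases, Acadvl and Acadl separated the ages in liver and Acadm did not. Acadvl stood at 10.07, 10.12 and 10.20 in 24-month livers and at 10.30, 10.37 and 10.31 in 6-month livers, a difference of -0.20 (-0.37 to -0.02, limma adjusted p = 0.119). Acadl stood at 10.92, 11.15 and 11.21 in 24-month livers and at 11.28, 11.32 and 11.29 in 6-month livers, also -0.20 (-0.41 to 0.0063, limma adjusted p = 0.161). The old arrays spread more for Acadl, with an SD of 0.15, against 0.02 in the young ones. Acadm, the medium-chain enzyme, stood at 12.38, 12.30 and 12.32 in 24-month livers and at 12.28, 12.39 and 12.36 in 6-month livers, a difference of -0.01 (-0.18 to 0.16, limma adjusted p = 0.937).

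Cpt2 stood at 11.46, 11.43 and 11.44 in 24-month livers and at 11.65, 11.59 and 11.50 in 6-month livers, a difference of -0.14. Decr1 differed by -0.12 and Etfdh by -0.11. Each of these 3 had an interval that included 0. Etfa differed by -0.04, and its old arrays at 10.75, 10.85 and 10.95 spanned the young ones at 10.87 to 10.90.

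Other measures moved with these differences in liver. The interquartile range of all genes was 2.43, 2.49 and 2.66 on the 24-month arrays, against 2.75, 2.79 and 2.79 on the 6-month arrays. The 1010 genes with mean levels within the members' range had a median age difference of -0.06, and 67.1% of them were lower at 24 months. Adipocyte markers had 7 of 9 estimates higher, at list means of 7.12 to 7.37 in 24-month livers and 6.87 to 6.94 in 6-month livers. Skeletal muscle markers had 10 of 10 higher, at 6.31 to 6.46 in 24-month livers and 6.09 to 6.17 in 6-month livers. These muscle means lay below the array medians, which were 6.54 to 6.62 at 24 months and 6.47 to 6.48 at 6 months. Fast fibre genes, which overlap that list in part, also had 10 of 10 higher, and cardiomyocyte markers had 9 of 10 higher. Hepatocyte markers had 7 of 9 lower, at 13.48 to 13.52 in 24-month livers and 13.49 to 13.53 in 6-month livers. The part of these in the members' differences was not tested. Quantile normalization, which gives all arrays 1 distribution and was applied to liver and quadriceps together, left a median of -0.09 with 7 of 9 estimates lower. With it, and with cyclic loess normalization, Acadm differed by 0.02 and 0.02 and Etfa by 0.03 and 0.04, higher at 24 months. The liver calls turned on the fit. With arrays centred on their median, which moved the median of all genes to -0.09, Hadhb (-0.36), Acadvl (-0.31) and Hadha (-0.28) fell (limma adjusted p of 0.0355, 0.0445 and 0.0481), among 355 genes higher and 2515 lower, 14.4% of all genes. Without the third 24-month array Hadhb fell by 0.29 (limma adjusted p = 0.0338), and 25.5% of all genes passed then.

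In quadriceps the ages overlapped for each of the 9 genes and the estimates fell on both sides of 0, with 5 higher and 4 lower, where 46.7% of all genes were lower, and a median of 0.0033. Non-overlap was seen in 6.69% of all genes upwards and in 5.33% downwards. Cpt2 had the largest difference in size. It stood at 9.63, 9.94 and 9.78 in 24-month quadriceps and at 9.78, 9.93 and 10.09 in 6-month quadriceps, a difference of -0.15 (-0.39 to 0.09, limma adjusted p = 0.824). At the other end Acadm differed by 0.09 (-0.17 to 0.35). The remaining 7 lay between -0.057 for Hadhb and 0.037 for Acadl, with Hadha at 0.0033. Without the first 24-month array, the one with the highest hepatocyte marker mean, 1 of the 9 estimates was lower, Cpt2 at -0.07, and none passed. Without the first 6-month array, the lowest of its group for all 9 genes, 9 of 9 estimates were lower, with a median of -0.12, and none passed.

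In heart the members showed the narrowest intervals. The ages overlapped for all 10, the differences ran from -0.045 for Etfa to 0.033 for Cpt1b, and the 95% intervals of all 10 lay between -0.16 and 0.13. Non-overlap was seen in 1.94% of all genes upwards and in 1.36% downwards. Cpt1b stood at 11.67, 11.64, 11.64 and 11.65 in 24-month hearts and at 11.62, 11.60, 11.58 and 11.67 in 6-month hearts (limma adjusted p = 0.984). Decr1 stood at 10.95, 10.97, 11.09 and 11.15 in 24-month hearts and at 11.09, 11.07, 10.96 and 11.05 in 6-month hearts, a difference of -0.0025. Estimates were lower for 9 of the 10, where 43.6% of all genes were lower, but without the second 24-month array 4 were. The 454 genes within the members' range of levels had a median difference of 0.025 and 36.8% of them were lower, whereas the members' median was -0.02.

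In gastrocnemius the 2 carnitine palmitoyltransferase genes had the lowest estimates and the electron carrier Etfa the highest, again with overlap for all 10. Estimates were lower for 4 of the 10, where 44.3% of all genes were lower. Non-overlap was seen in 3.86% of all genes upwards and in 4.78% downwards. Cpt2 stood at 8.85, 8.87, 9.12 and 8.47 in 24-month gastrocnemius and at 9.05, 9.13, 9.36 and 8.88 in 6-month gastrocnemius, a difference of -0.28 with a standard error of 0.14 (-0.59 to 0.03, limma adjusted p = 0.347). Cpt1b stood at 10.63, 10.50, 10.73 and 10.23 in 24-month gastrocnemius and at 10.61, 10.73, 10.96 and 10.60 in 6-month gastrocnemius, a difference of -0.20 (-0.46 to 0.055, limma adjusted p = 0.409). For both, the fourth old array was the lowest of all 8.

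Etfa went the other way. It stood at 9.96, 9.84, 9.97 and 9.56 in 24-month gastrocnemius and at 9.79, 9.70, 9.77 and 9.50 in 6-month gastrocnemius, a difference of 0.14 (-0.08 to 0.37, limma adjusted p = 0.501). Acadvl differed by -0.17 with the widest interval, -0.57 to 0.24. The other 6 lay between -0.058 for Hadha and 0.09 for Acadl. The 1594 genes within the members' range of levels had a median difference of -0.10 and 68.6% of them were lower, whereas the members' median was 0.02. Endothelial markers had 9 of 9 estimates lower, at list means of 7.20 to 7.61 in 24-month gastrocnemius and 7.51 to 7.82 in 6-month gastrocnemius, and macrophage markers had 10 of 10 higher, at 6.26 to 6.55 in 24-month gastrocnemius and 6.17 to 6.20 in 6-month gastrocnemius. Skeletal muscle markers had 9 of 10 lower, and their list mean was 11.15 to 11.26 on the 24-month arrays, wholly below 11.27 to 11.36 on the 6-month arrays. Fast fibre genes, a list that shares Tnni2 and Mylpf with the skeletal muscle markers, had 9 of 10 lower. Their list means were 12.89 to 13.02 in 24-month gastrocnemius and 12.98 to 13.04 in 6-month gastrocnemius. Slow oxidative fibre genes had 7 of 10 higher, at 7.14 to 8.40 in 24-month gastrocnemius and 7.28 to 8.60 in 6-month gastrocnemius. The part of these lists in these differences was not tested.

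**Figure D3:**
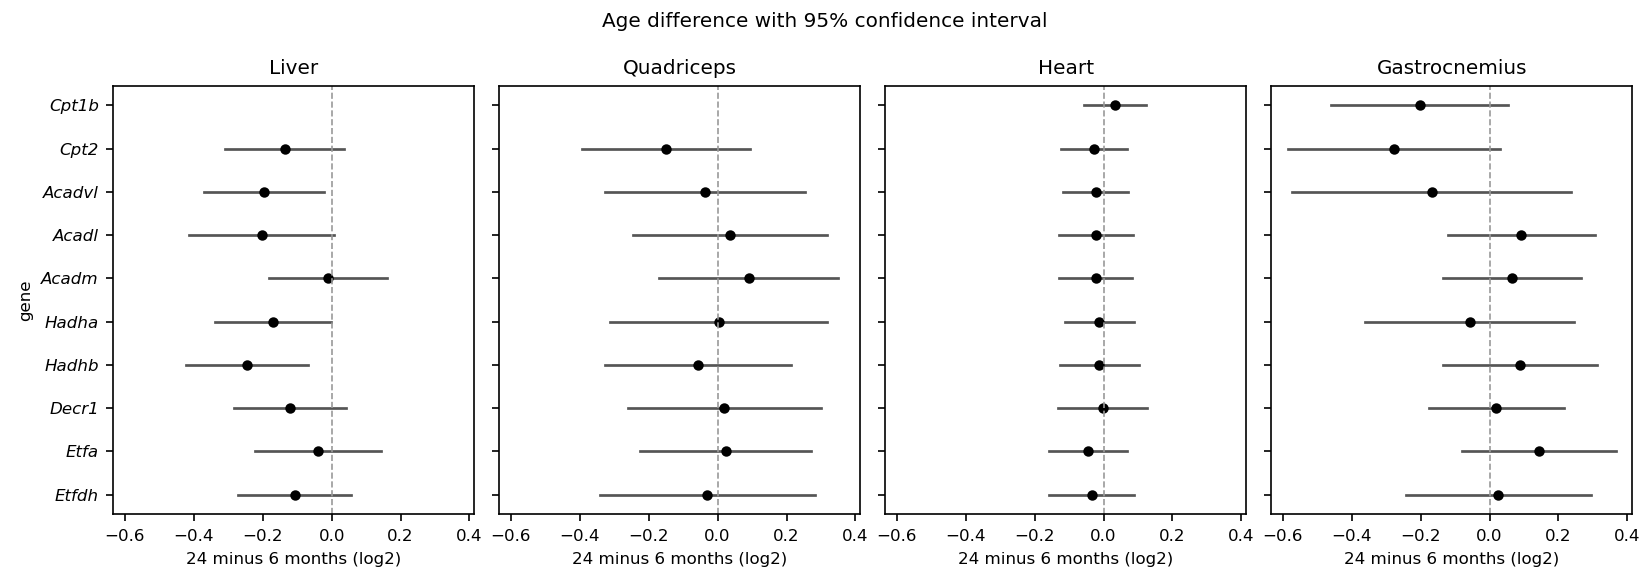
Age difference of each gene, 24 minus 6 months in log2 units (points), with 95% confidence intervals (bars) in the 4 tissues. The intervals are narrowest in heart, where all 10 lie between -0.16 and 0.13, and in liver those of Acadvl, Hadha and Hadhb lie below 0.

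Whether the age difference itself differed between tissues was tested as an interaction. For liver minus quadriceps none of the 9 members passed in limma (0.0151% of all genes did), and 0 had an unadjusted p under 0.05 (19.8% of all genes). The estimates ran from -0.24 for Acadl (-0.59 to 0.11, limma adjusted p = 0.41) to 0.013 for Cpt2 (-0.27 to 0.30). For heart minus gastrocnemius none of the 10 passed (0.595% of all genes did), and again 0 had an unadjusted p under 0.05 (13.8% of all genes). The estimates ran from -0.19 for Etfa (-0.44 to 0.06) to 0.25 for Cpt2 (-0.08 to 0.58), and the smallest limma adjusted p was 0.444, for Cpt1b at 0.24 (-0.04 to 0.51). Heart and liver lie on different array types and were not tested against each other, nor were the 2 skeletal muscles.

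The members varied little between arrays of 1 group in heart and liver and more in skeletal muscle. The median SD over the members was 0.04 in 24-month liver and 0.03 in 6-month liver, and 0.06 in 24-month heart and 0.04 in 6-month heart. It was 0.17 in 24-month quadriceps and 0.19 in 6-month quadriceps, and 0.20 in 24-month gastrocnemius and 0.16 in 6-month gastrocnemius. The median SD over all genes lay between 0.07 and 0.12 in these 8 groups, so the members lay below it in liver and heart and above it in both muscles. Most genes were dimmer than the lowest member, 94% in liver, 90.5% in quadriceps, 98.2% in heart and 93.4% in gastrocnemius. The spread was not compared with that of genes at like levels. Acadvl varied most in gastrocnemius, with an SD of 0.33 at 24 months and 0.30 at 6 months.

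In muscle the members went up and down together from array to array. The fourth gastrocnemius array was the lowest of its group for all 10 genes at both ages, with a mean of the members of 9.80 at 24 months, where the other arrays had 10.07 to 10.25, and of 9.90 at 6 months, where the others had 10.12 to 10.31. The third 6-month array was the highest for 9 of 10. In quadriceps the first array was the lowest for all 9 genes at both ages, at 10.22 in the 24-month group and 10.21 in the 6-month group. Heart showed the same on a smaller scale, with 9 of 10 genes lowest on the second array at 24 months and on the third array at 6 months.

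Markers of fibre and chamber type moved with many of these arrays. Slow oxidative fibre genes, a list of 10 that includes Myh7 and Tnni1, averaged 7.14 on the fourth 24-month gastrocnemius array, against 8.34 to 8.40 on the others of that age, and 7.28 on the fourth 6-month array, against 7.85 to 8.60. The third 6-month gastrocnemius array had the highest slow fibre mean of its group. In 6-month quadriceps the slow fibre mean was 7.46, 7.90 and 9.89 on the 3 arrays in turn, and the members' mean was 10.21, 10.43 and 10.59. In 24-month quadriceps it was 8.58, 8.71 and 8.06, and the first array, lowest for the members, was not the lowest for slow fibre genes. In heart, atrial markers averaged 9.04 on the second 24-month array and 9.31 on the third 6-month array, the highest of each age. Their range was 7.27 to 9.04 in 24-month hearts and 8.21 to 9.31 in 6-month hearts, with 8 of 8 age estimates lower. The part of fibre or chamber make-up in the members' levels was not tested.

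**Figure D4:**
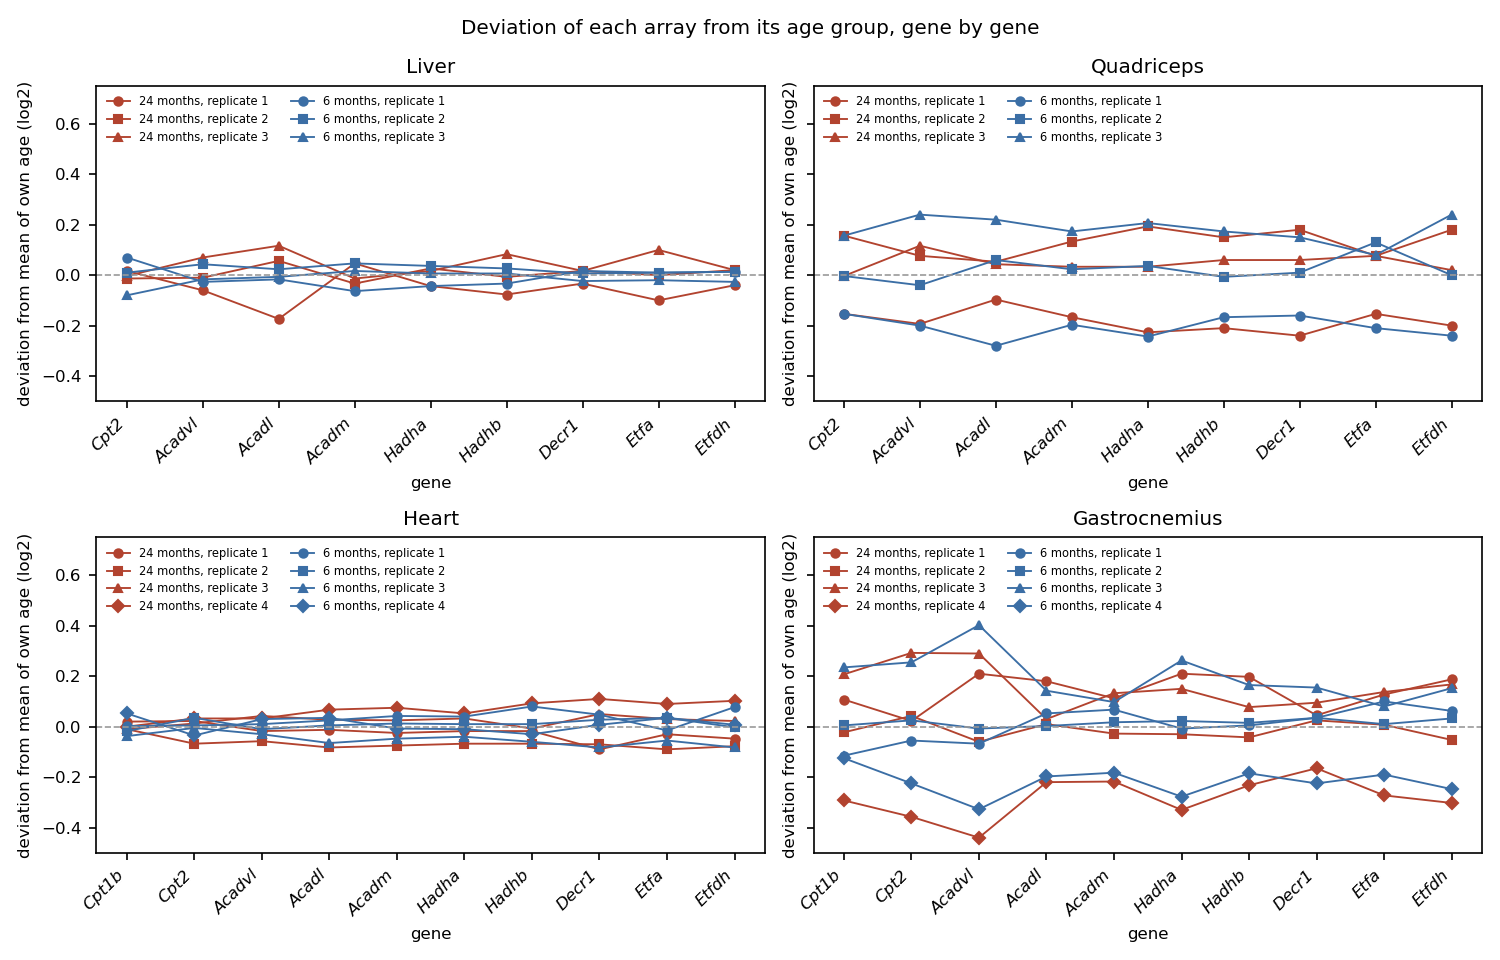
Deviation of each array from the mean of its own age and tissue (vertical axis, log2 units) for each gene, with 1 line per array. In gastrocnemius the fourth array of both ages lies lowest for all 10 genes, in quadriceps the first array of both ages lies lowest for all 9, and in liver and heart most lines lie closer to 0, with Acadl on the first 24-month liver array an exception.

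Because the members shared these shifts, each was also expressed relative to the mean of the other members on the same array, a measure chosen after the data had been seen. Only its change between ages is read, since levels of different probe sets are not comparable, and no test is given, since the members are set against each other. In gastrocnemius 5 of the 10 genes had relative levels that did not overlap between ages. Cpt2 (-0.28) and Cpt1b (-0.19), which import the fatty acyl group, lay lower on all 24-month arrays. Etfa (0.19), Hadhb (0.13) and Acadm (0.10) lay higher on all of them. Among all genes set against the mean of the members, 0.695% lay wholly lower and 0.406% wholly higher, but those genes take no part in the mean they are set against, so these shares are no like-for-like background.

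In quadriceps Cpt2 again lay lower on all 24-month arrays, by 0.16, and Acadm higher, by 0.11, with the other 7 overlapping (0.753% and 1.52% of all genes set against the members' mean). Relative to the other members and as deposited, Cpt2 thus lay lower and Acadm higher on all old arrays of both muscles. The levels of both genes themselves overlapped between ages in both muscles. A lower level of 1 member raises the relative levels of the rest, so the 2 directions are not separate results. In liver Acadm (0.14) and Etfa (0.11) lay higher and Hadhb (-0.12) and Acadvl (-0.07) lower, where 39.3% of all genes lay wholly higher and 5.51% wholly lower. The relative level of Cpt2 overlapped in liver, with a mean of 0.12 at both ages. In heart all 10 overlapped, with differences from -0.03 for Etfa to 0.06 for Cpt1b, where 1.86% of all genes lay wholly higher and 0.998% wholly lower.

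These relative levels depended in part on scaling. After quantile normalization and after cyclic loess, Cpt2 in both muscles, Etfa in gastrocnemius, Acadm in quadriceps, and Acadm, Etfa and Hadhb in liver still did not overlap. In gastrocnemius Cpt1b (-0.20) and Acadm (0.08) overlapped after quantile normalization and Hadhb (0.12) after cyclic loess. In liver, quantile normalization made Acadvl (-0.04) overlap and put Hadha (-0.09) wholly lower.

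**Figure D5:**
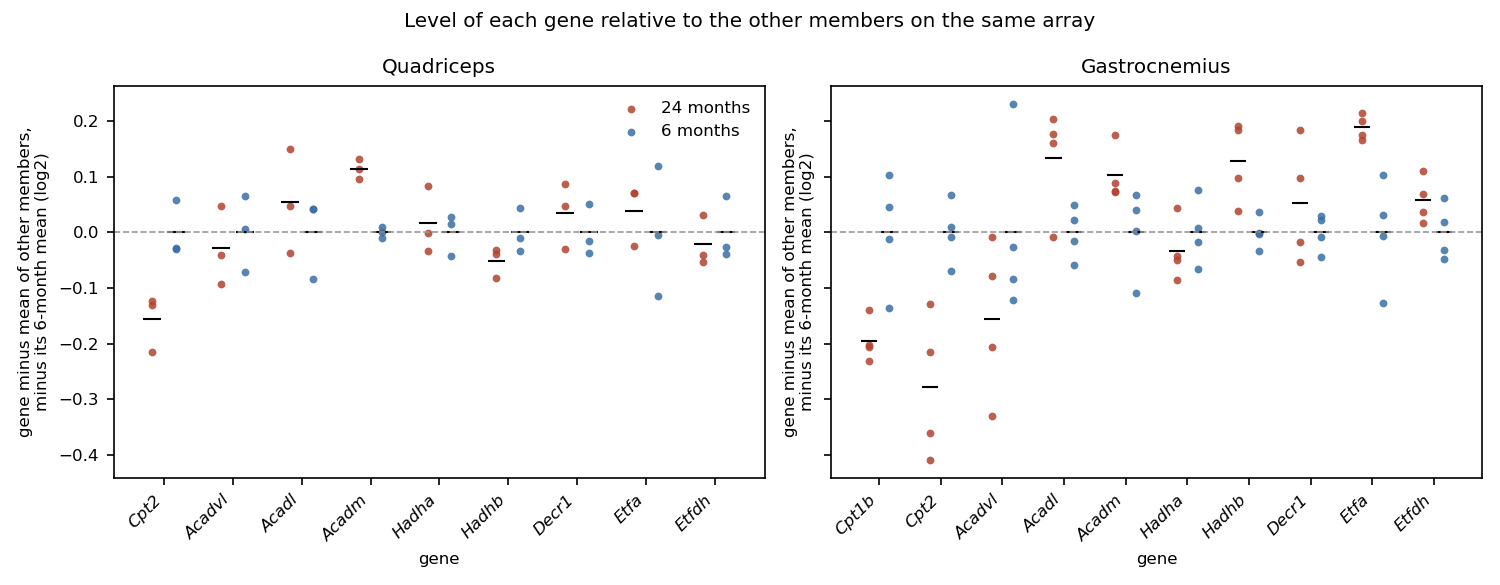
Level of each gene minus the mean of the other members on the same array, set to a mean of 0 at 6 months, in log2 units, for quadriceps (9 genes, 3 arrays per age) and gastrocnemius (10 genes, 4 arrays per age), 24 months left of 6 months with lines at the means. Cpt2 lies lower at 24 months in both muscles, by 0.16 in quadriceps and 0.28 in gastrocnemius, and Acadm lies higher in both.

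Genes that supply the pathway were read from lists around the members. Of 17 measured genes of fatty acid uptake and activation none passed in limma in any tissue. At an unadjusted p under 0.05 there were 3 higher and 4 lower in liver, 1 higher and 1 lower in quadriceps and likewise in heart, and 1 higher in gastrocnemius. The 7 of 17 in liver stood beside 32.8% of all genes, and in the other tissues the shares of all genes were 7.06% in quadriceps, 5.99% in heart and 16.5% in gastrocnemius. Acsl6, an acyl-CoA synthetase, had a higher estimate in each of the 3 muscle tissues, at 0.44 in quadriceps (limma adjusted p = 0.565), 0.17 in heart (0.379) and 0.14 in gastrocnemius (0.301). Acsl4, which prefers arachidonic acid, differed by -0.69 in liver (limma adjusted p = 0.0543) and -0.18 in quadriceps. In liver 13 of the 17 estimates were lower, among them Slc27a1, a fatty acid transport protein, at -0.33. The share lower was 45.2% of all genes and 67.1% of genes within the members' range of levels. That range starts at 10.23, whereas this list averaged 9.26 to 9.39 on the liver arrays, so the 67.1% is not matched to its levels. Slc27a5, a bile acid and fatty acyl-CoA ligase of liver, differed by 0.12 in gastrocnemius. The fatty acid binding protein gene Fabp1 differed by -0.31 in heart with a mean of 3.99 in 24-month hearts and 4.31 in 6-month hearts. Fabp1 is a liver gene, and hepatocyte markers in heart had 9 of 9 estimates lower, at list means of 5.35 to 5.53 in 24-month hearts and 5.61 to 6.39 in 6-month hearts. Their part in the Fabp1 difference was not tested.

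Of the other mitochondrial oxidation genes, 20 were measured in liver and quadriceps and 19 in heart and gastrocnemius, and none passed in limma. At an unadjusted p under 0.05 there were 1 higher and 4 lower in liver, 1 higher and 2 lower in gastrocnemius, and 0 in quadriceps and heart, where the shares of all genes were 32.8%, 16.5%, 7.06% and 5.99% in the same order. Hadh, the short-chain hydroxyacyl-CoA dehydrogenase, had lower estimates in both skeletal muscles, at -0.32 in gastrocnemius (limma adjusted p = 0.281) and -0.19 in quadriceps (0.703). Acot2, a mitochondrial thioesterase, differed by -0.41 in liver (limma adjusted p = 0.0952) and -0.36 in quadriceps. Acads, the short-chain acyl-CoA dehydrogenase, differed by -0.21 in gastrocnemius. There 15 of 19 estimates were lower, against 44.3% of all genes and 68.6% of genes within the members' range of levels. That range starts at 8.97, whereas this list averaged 8.58 to 8.92 on the gastrocnemius arrays, so the 68.6% is not matched to its levels. Cpt1c, the brain form of the carnitine enzyme, differed by 0.20 in liver, and in heart the smallest p-values belonged to the propionyl-CoA carboxylase genes Pccb (-0.08) and Pcca (-0.08).

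Of 17 measured peroxisomal oxidation genes none passed in limma in any tissue. In liver 14 of the 17 estimates were lower, against 45.2% of all genes and 67.1% of genes within the members' range of levels. At an unadjusted p under 0.05 there were 1 higher and 8 lower in liver, 2 higher and 5 lower in gastrocnemius, and 1 lower in quadriceps and in heart. Of all genes 32.8% met it in liver, 16.5% in gastrocnemius, 7.06% in quadriceps and 5.99% in heart. Ehhadh, the peroxisomal bifunctional enzyme, stood at 12.75 ± 0.11 in 24-month livers and 13.22 ± 0.10 in 6-month livers (SD, n = 3 each), a difference of -0.47 (limma adjusted p = 0.0543). It differed by -0.24 in heart. Abcd2, a peroxisomal fatty acyl transporter, differed by 0.67 in liver (limma adjusted p = 0.062). In gastrocnemius Crat, carnitine acetyltransferase, differed by -0.22 (limma adjusted p = 0.166) and Acaa1b by -0.20, and in quadriceps Eci2 differed by -0.16 and Crot by -0.17. Decr2, the peroxisomal counterpart of Decr1, differed by 0.07 in heart.

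Of the regulators and fasting targets, 28 were measured in liver and quadriceps and 26 in heart and gastrocnemius, and none passed in limma. At an unadjusted p under 0.05 there were 3 higher and 4 lower in liver, 3 lower in quadriceps, 1 higher and 4 lower in heart, and 4 lower in gastrocnemius. These are 7 of 28 in liver, beside 32.8% of all genes, 3 of 28 in quadriceps, beside 7.06%, 5 of 26 in heart, beside 5.99%, and 4 of 26 in gastrocnemius, beside 16.5%. Angptl4, a fasting-induced inhibitor of lipoprotein lipase and a target of PPARs, had lower estimates in all 3 muscle tissues. It stood at 8.38 ± 0.03 in 24-month hearts and 8.92 ± 0.25 in 6-month hearts (SD, n = 4 each), a difference of -0.54 (limma adjusted p = 0.273). It differed by -0.47 in gastrocnemius (limma adjusted p = 0.143) and -0.28 in quadriceps (limma adjusted p = 0.598). Lpin1, a phosphatidate phosphatase that also acts with PPARα, differed by 0.85 in liver (limma adjusted p = 0.0543) and by -0.30 in quadriceps. Plin2, a lipid droplet coat gene, differed by -0.23 in heart, Rxra, the partner receptor of PPARs, by -0.30 in gastrocnemius (limma adjusted p = 0.103), and the coactivator gene Med1 by -0.29 in liver.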

How the data were processed

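Total RNA of mouse liver, quadriceps, heart and gastrocnemius had been hybridised to Affymetrix arrays, 1 array type for liver and quadriceps and another for heart and gastrocnemius. The authors deposited log2 expression values per probe set, made with RMA per the submitters' processing notes with no version. The array types were normalized separately and never tested against each other. Of 28944 probe sets in the liver and quadriceps table, 21797 had 1 gene symbol, 1613 several and 5534 none. For heart and gastrocnemius 30604 of 65956 had 1, 2146 several and 33206 none. Symbols came from the platform annotation, updated through RefSeq, and several probe sets of a gene were reduced to the one with the highest mean.

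Groups were taken from the labels. limma 3.58.1 in R 4.3.3 (lmFit and eBayes) was fitted to all genes of a tissue for 24 minus 6 months, and to all arrays of a table for interactions and for tissue levels at 6 months, two-sided, with Benjamini-Hochberg adjustment over all genes and a threshold of 0.05. The script was tested on simulated data. Alternatives were quantile, cyclic loess and median scaling, dim genes left out, an intensity trend with robust prior, array weights, a replicate block and each array left out. The level relative to the other members was added after the data had been seen. All members were named, with the genes of lowest p in each surrounding list (2 per list and tissue). The members and lists were chosen with earlier results of these data known. Promoter sequences are those of RefSeq on GRCm38.p6.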

Additional observations from a re-analysis of the deposited data

How the results depend on the processing

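In liver, where none of the 9 genes passed, 3 passed and were lower with arrays centred on their median (14.4% of all genes passed), 2 with array weights (39.6%), 2 with an intensity trend and robust prior (11.3%) and 1 with dim genes left out (17% of 10382 genes). Leaving out 1 array gave 0 to 1, and a fit joint with quadriceps gave 0 where 18.2% of all genes passed. The cause was not tested. Over all genes, calls moved from 65 in liver to between 0 and 7897 under other settings, from 1 in quadriceps to between 0 and 18, from 2 in heart to between 0 and 25, and from 3 in gastrocnemius to between 0 and 829. Of 76 member results 12 changed sign under another setting and 25 when 1 array was left out, all with estimates of 0.145 or less in size as deposited. With quantile normalization the age difference was 0.0156 for Acadm and 0.0339 for Etfa in liver and 0.025 for Hadha in gastrocnemius, and the heart minus gastrocnemius interaction of Hadha was -0.0477. With cyclic loess the age difference in liver was 0.0243 for Acadm and 0.04 for Etfa, the Etfa liver minus quadriceps interaction 0.0153 and the Hadha heart minus gastrocnemius interaction -0.0234. With centring the age difference was -0.0067 for Hadha in quadriceps and -0.015 for Etfdh and -0.02 for Decr1 in gastrocnemius, the Cpt2 liver minus quadriceps interaction -0.09 and the Decr1 heart minus gastrocnemius interaction 0.0075. With array weights the age difference in quadriceps was 0.0155 for Acadvl and 0.0112 for Etfdh, and the Cpt2 liver minus quadriceps interaction was -0.0359.

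Leaving out 1 array moved the age difference in liver between -0.0417 and 0.0133 for Acadm and -0.09 and 0.01 for Etfa. In quadriceps the ranges were -0.0083 to 0.1767 for Acadm, -0.1033 to 0.1467 for Acadl, -0.1367 to 0.0833 for Acadvl, -0.1183 to 0.1167 for Hadha, -0.14 to 0.0483 for Hadhb, -0.0817 to 0.1 for Etfa, -0.15 to 0.09 for Etfdh and -0.07 to 0.14 for Decr1. In heart they were -0.0475 to 0.0025 for Acadm, -0.045 to 0.005 for Acadl, -0.03 to 0.01 for Hadha, -0.0433 to 0.0142 for Hadhb and -0.0392 to 0.0275 for Decr1, and in gastrocnemius -0.15 to 0.0525 for Hadha, -0.0575 to 0.1258 for Etfdh and -0.055 to 0.075 for Decr1. For the liver minus quadriceps interaction they were -0.065 to 0.0917 for Cpt2, -0.14 to 0.0417 for Etfa and -0.1967 to 0.0433 for Etfdh, and for heart minus gastrocnemius -0.0017 to 0.2542 for Acadvl, -0.065 to 0.1375 for Hadha, -0.1608 to 0.0225 for Etfdh and -0.0775 to 0.0525 for Decr1. With the replicate block 0 genes passed in each tissue and no member's call changed. Arrays correlated best with their own number in 4 of 6 in liver, 2 of 6 in quadriceps, 0 of 8 in heart and 6 of 8 in gastrocnemius. Deviations of same-numbered arrays from their group means correlated between ages at -0.02 to 0.05 in liver and -0.04 to 0.16 in quadriceps. In heart the range was -0.22 to -0.0024 and in gastrocnemius -0.04 to 0.30. Between tissues of the same age, same-numbered arrays correlated at -0.11 to 0.06 for liver and quadriceps. For heart and gastrocnemius the range was -0.03 to 0.19. The labels name no pairing, and the numbers were not treated as pairs. In gastrocnemius r was 0.13, -0.04, 0.21 and 0.30 for numbers 1 to 4, so a link between same-numbered arrays there was not settled. With 3 or 4 arrays per age, an age difference whose printed interval includes 0 could not be told from 0. Any size inside such an interval remained possible, and the intervals are not adjusted for the number of genes.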

Other observations

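The genes whose levels followed the mean of the members most closely over the arrays of both types were Acat1, a mitochondrial thiolase of ketone and isoleucine metabolism (Pearson r of 0.9952 over the 12 liver and quadriceps arrays and 0.9955 over the 16 heart and gastrocnemius arrays), Hsdl2 (0.9942 and 0.9952), the growth factor gene Fgf1 (0.9942 and 0.995), Acot1, a cytosolic acyl-CoA thioesterase (0.9927 and 0.9969), and Grb14, an adaptor of the insulin receptor (0.9918 and 0.993). These arrays share a large tissue difference, so the correlations describe it and carry no test. At 6 months their tissue differences ran from 1.42 for Acat1 to 3.07 for Acot1 for liver minus quadriceps, and from 0.86 for Acat1 to 2.52 for Grb14 for heart minus gastrocnemius, and all 5 genes were higher in liver and in heart. With age none passed in limma. Grb14 differed by -0.37 in liver (limma adjusted p = 0.064) and by 0.29 in gastrocnemius (0.45), and Acot1 by -0.19 in liver, -0.22 in quadriceps and -0.25 in gastrocnemius, where its standard error was 0.19.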
